A study of Mus musculus with 12 samples.

Results

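Interleukin receptor genes of the common gamma chain family were followed in CD8 T cells that received a control or a Batf3 retroviral vector. The 7 genes were taken by name from the count table of 55335 genes: Il7r, Il2ra, Il2rb, Il2rg, Il15ra, Il4ra and Il21r. All 7 had enough reads to be tested, among 15702 tested genes. The cells were CD8 T cells from the spleen of C57BL/6 mice with the OT-I transgene, a T cell receptor specific for a peptide of ovalbumin, and were sorted for transduction by flow cytometry. Cells with either vector spent 6 h either with IL-15 at 100 ng/ml, called non-stimulated, or on plate-bound anti-CD3e and anti-CD28 at 1 µg/ml each, called stimulated. Each of the 4 groups (control non-stimulated, control stimulated, Batf3 non-stimulated, Batf3 stimulated) had 3 libraries. IL-15 is named in the labels for the non-stimulated arm alone, so the antibodies and a loss of IL-15 cannot be told apart. They also call the replicates technical, so every SD, SE and p-value measures technical spread and none covers the spread between mice or transductions.

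The common gamma chain, the product of Il2rg, is a shared subunit of the receptors for IL-2, IL-4, IL-7, IL-9, IL-15 and IL-21, and pairs in each with a chain that binds the particular cytokine. The private chain signals through JAK1 and the common chain through JAK3, which phosphorylate STAT5 for IL-2, IL-7 and IL-15, STAT6 for IL-4 and mainly STAT3 for IL-21. In CD8 T cells, IL-7 receptor is kept on naive and memory cells and is lost after antigen receptor signalling, while the IL-2 receptor alpha chain is induced by it. BATF3 is a basic leucine zipper factor of the AP-1 family that binds DNA with JUN proteins.

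Promoter sequence is shown for Il7r, the gene with the largest response to the vector, and for Il2ra, the gene with the largest rise on stimulation. Sequences are from RefSeq on GRCm38.p6, read 5′ to 3′ in the direction of the gene. RefSeq promoters matched 6 of the 7 genes, with 7 entries, since Il15ra had more than 1; Il2rb is named only. The capitals in the first sequence mark a match to the STAT motif TTCNNNGAA, which begins 142 bases before the RefSeq start site, and a match to the ETS motif ACAGGAAG, read from the other strand, which begins 48 bases before it. The printed stretch of Il7r, on the minus strand at chr15:9529877-9530040, is the 164 bases next to that start site. It lies within the gene interval of the longer GENCODE models and outside their exons. The stretch of Il2ra, on the plus strand at chr2:11642542-11642791, is the 250 bases before its start site and has no capitals because none of the motifs searched matched.

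Il7r: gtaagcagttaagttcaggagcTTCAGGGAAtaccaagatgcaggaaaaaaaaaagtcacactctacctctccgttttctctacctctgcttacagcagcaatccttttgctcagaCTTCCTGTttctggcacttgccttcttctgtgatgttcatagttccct
Il2ra: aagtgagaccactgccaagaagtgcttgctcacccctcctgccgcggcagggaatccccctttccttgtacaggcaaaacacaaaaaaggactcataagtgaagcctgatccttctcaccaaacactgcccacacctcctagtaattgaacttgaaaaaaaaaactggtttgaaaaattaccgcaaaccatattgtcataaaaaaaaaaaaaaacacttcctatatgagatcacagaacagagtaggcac

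The motifs were searched on both strands of the 250 bases before each start site and were chosen with these sequences in view. The STAT motif was present in 7.02% of 32851 RefSeq promoters of that length and the ETS motif in 2.9%. The AP-1 motif TGANTCA was present in 6.75% of all promoters, and among the receptor genes in 1 entry of Il15ra, 30 bases before the start site. The forkhead motif TGTTTAC was present in 3.17% of all promoters, and among the receptor genes in that of Il21r, 38 bases before the start site. These 2 matches are shown in capitals within 30 bases of sequence, from the plus strands of chr2:11705672-11705701 and chr7:125603381-125603410.

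Il15ra: gtggggatgcTGAGTCAcagatctgtcacc
Il21r: ggcggggcacTGTTTACcacatcccctccc

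The RUNX motif TGTGGTT, present in 4.4% of all promoters, and the BATF-IRF composite motifs (TGANTCA preceded by TTTC and 4 further bases, or directly by GAAA), present in 0.0974% and 0.1%, had no match in the receptor promoters. A match describes letters in the window and is no evidence of binding, and a missing match says only that the letters are absent from that window.

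Some of the 7 genes are neighbours. On GRCm38 with GENCODE M21, Il2ra (chr2:11642807-11693193) and Il15ra (chr2:11705290-11734317) lie on the forward strand 12.1 kb apart with no annotated gene between them. Il4ra (chr7:125552120-125579474) and Il21r (chr7:125603429-125633570) lie on the forward strand 24.0 kb apart, also with none between them. Il7r (chr15:9505788-9530176), Il2rb (chr15:78479256-78495271) and Il2rg (chrX:101264378-101268255) are on the reverse strand. Reads were counted over whole genes, so isoforms such as membrane and soluble forms are not separated.

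Library facts were as follows. Total counts lay between 14211564 and 14468231 per library and the share of mitochondrial reads between 1.64 and 2.31%. Values are CPM, read counts divided by library size, on library sizes scaled with TMM factors, which lay between 0.917 and 1.1. Batf3 stimulated replicate 3 stood apart from the other libraries of its group: its counts differed from theirs by a chi-square per degree of freedom of 3.16 and 2.62, against 1.59 between replicates 1 and 2 and at most 2.16 in the other groups, and its mitochondrial share was the lowest. Without it, 2 rather than 4 receptor genes were called lower with the vector in stimulated cells, with Il2ra (edgeR adjusted p = 0.0633) and Il15ra (0.146) lost; Il7r kept its call at a log2 change of 2.05. With all libraries, 29.5% of all tested genes were called in that comparison, 14.6% lower. Batf3 mean CPM was 6.77 ± 0.833 (SD, n = 3) in control and 470 ± 3.68 in Batf3 non-stimulated cells, and 18.4 ± 0.735 and 427 ± 11.9 in the stimulated groups. Summed CPM of 5 T cell genes (Cd3e, Cd3d, Cd3g, Cd8a and Cd8b1) was 1782 to 1804 in control and 1703 to 1710 in Batf3 non-stimulated libraries. It was 1026 to 1036 and 1135 to 1179 in the control and Batf3 stimulated libraries. Because the cells were measured in bulk, a change in the number of expressing cells and a change in RNA per cell cannot be told apart.

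**Figure D1:**
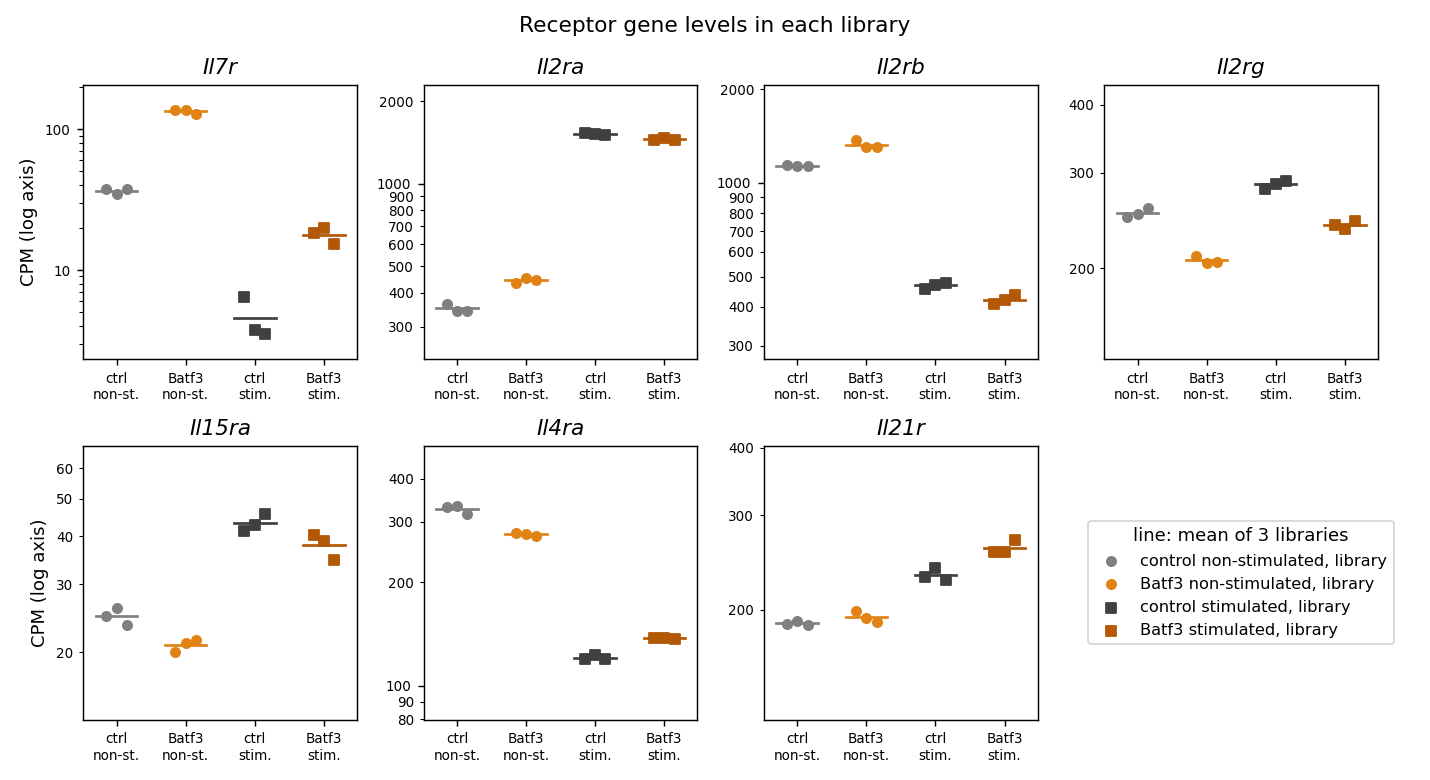
Level of each receptor gene in CPM in the 4 groups, 1 panel per gene with its own log axis; points are the 3 libraries and lines their mean. Il7r spans the widest range, from a mean of 4.57 CPM in control stimulated cells to 134 CPM in Batf3 non-stimulated cells.

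Il7r, which encodes the IL-7 binding chain, was higher with the Batf3 vector in both cultures and lower after stimulation with both vectors. In control non-stimulated cells the 3 libraries had 37.5, 34.4 and 37.5 CPM, and in Batf3 non-stimulated cells 137, 137 and 127 CPM. In control stimulated cells they had 6.47, 3.74 and 3.50 CPM, and in Batf3 stimulated cells 18.3, 19.8 and 15.3 CPM. No library of 1 group overlapped another group, and the order from lowest to highest was control stimulated, Batf3 stimulated, control non-stimulated, Batf3 non-stimulated. Il7r RNA in Batf3 stimulated cells therefore lay below that of control non-stimulated cells.

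The rise of Il7r with the vector was 3.66-fold in non-stimulated cells (log2 change 1.87 ± 0.07 SE, edgeR quasi-likelihood test, Benjamini-Hochberg adjusted p = 1.04e-17). In stimulated cells it was 3.89-fold (1.96 ± 0.16, edgeR adjusted p = 5.31e-11). Of all tested genes, 0.783% had a larger change with the vector in non-stimulated cells and 0.72% in stimulated cells, in either direction. The difference between these effects, the vector by stimulation interaction, was 0.09 ± 0.18 on the log2 scale, with a 95% interval of -0.28 to 0.45, and did not pass the test (edgeR adjusted p = 0.794). Any difference within that interval is compatible with these libraries. Counts in control stimulated cells were 85, 49 and 46 reads, and replicate 1 was the highest; without it the rise in stimulated cells was 2.29 and the interaction 0.39 on the log2 scale (edgeR adjusted p = 0.102).

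Stimulation lowered Il7r 7.96-fold in control cells (log2 change -2.99 ± 0.15, edgeR adjusted p = 1.57e-17) and 7.51-fold in Batf3 cells (-2.91 ± 0.09, edgeR adjusted p = 6.7e-22). Of all tested genes, 7.38 and 8.13% changed more.

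Markers of other cell types were set beside these values. Foxp3, which defines regulatory T cells, rose with the vector from 0.619 ± 0.326 to 11.8 ± 0.384 CPM in non-stimulated cells (18.8-fold, edgeR adjusted p = 3.56e-24) and from 1.12 ± 0.44 to 5.68 ± 1.32 CPM in stimulated cells (5.05-fold, edgeR adjusted p = 2.97e-12), by more than Il7r in each culture. Ikzf4, the other regulatory T cell marker, rose from 22.0 ± 1.48 to 33.4 ± 1.14 CPM in non-stimulated cells (edgeR adjusted p = 1.86e-10) and had 7.54 ± 0.384 and 9.14 ± 0.725 CPM in stimulated cells (edgeR adjusted p = 0.0661). Their summed CPM was 21.2 to 24.6 in control and 44.3 to 46.9 in Batf3 non-stimulated libraries, and 7.77 to 9.3 and 13.7 to 16.7 in the stimulated ones. Summed CPM of the CD4 T cell markers Cd4 and Zbtb7b was 12.7 to 15.4 and 21.99 to 24 in the non-stimulated groups, and overlapped in the stimulated groups at 8.53 to 9.9 and 7.94 to 10.5. Cd4 itself had a group mean of at most 0.321 CPM.

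The summed CPM of 6 myeloid markers was also higher with the vector in both cultures, at 2.92 to 3.25 in control and 5.61 to 6.28 in Batf3 non-stimulated libraries and 5.03 to 7.55 and 8.83 to 11.7 in the stimulated ones. Of these, 3 could be tested. Itgam was called higher in both (2.45-fold, edgeR adjusted p = 2.27e-07, and 1.81-fold, edgeR adjusted p = 7.96e-06). Ly6g was called lower in stimulated cells, from 0.203 ± 0.044 to 0 CPM, near the floor (edgeR adjusted p = 0.0119). In non-stimulated cells Ly6g was not called (edgeR adjusted p = 0.636). Adgre1 was called in neither culture (edgeR adjusted p = 0.782 and 0.284). Lyz2 and S100a8 were at 0 in all groups. Sums of 5 B cell markers were 3.11 to 4.58 and 4.17 to 6.25 CPM in control and Batf3 non-stimulated libraries and 0.685 to 1.45 and 1.18 to 1.85 CPM in stimulated ones, with Ms4a1 at 0. Those of 5 dendritic cell markers were 16.5 to 17.9 and 15.9 to 19, then 19.2 to 23 and 17.6 to 19.3 CPM, with Siglech at 0. Those of 4 NK cell markers were 2.59 to 4.05 and 0.577 to 1.15, then 0.61 to 1.14 and 0.818 to 1.254 CPM, with Ncr1 and Klra8 at 0. Those of 4 erythroid markers were 0.53 to 1.2 and 0.961 to 2.18, then 0 to 0.0762 and 0.221 to 0.372 CPM, with Hbb-bs at 0. The dendritic cell marker Xcr1 was called higher with the vector in both cultures (edgeR adjusted p = 0.0377 and 0.000151). Zbtb46 was called lower, in stimulated cells only (edgeR adjusted p = 3.12e-05). In non-stimulated cells only, Cd79b and Hba-a1 were called higher (edgeR adjusted p = 0.0448 and 0.000199) and Klrb1c lower (edgeR adjusted p = 1.61e-07). Cd79a was called in neither culture. The part of these cells in the Il7r values was not tested. The share of mitochondrial reads was 1.89 to 2.03% in control and 2.19 to 2.31% in Batf3 non-stimulated libraries, and the number of genes with a count was 21860 to 21966 and 23232 to 23387, without overlap; their part was not tested either.

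Il2ra, the alpha chain that raises the affinity of the IL-2 receptor, rose on stimulation with both vectors, and by less with Batf3. The 3 libraries had 365, 344 and 344 CPM in control non-stimulated cells and 434, 453 and 444 CPM in Batf3 non-stimulated cells. They had 1530, 1515 and 1510 CPM in control stimulated cells and 1447, 1474 and 1440 CPM in Batf3 stimulated cells. The groups did not overlap, and all stimulated libraries lay above all non-stimulated ones.

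The rise of Il2ra on stimulation was 4.33-fold in control cells (log2 change 2.11 ± 0.03, edgeR adjusted p = 2.24e-60) and 3.28-fold in Batf3 cells (1.71 ± 0.03, edgeR adjusted p = 6.71e-56). The vector raised Il2ra in non-stimulated cells (log2 change 0.34 ± 0.03, edgeR adjusted p = 2.09e-17). In stimulated cells Il2ra fell by 0.06 on the log2 scale (SE 0.02, edgeR adjusted p = 0.0408). That call is weak: it was lost on library sizes alone (adjusted p = 0.664), with the replicate number as a block (adjusted p = 0.0508), and without control replicate 1 or 2 or Batf3 replicate 1 or 3 of the stimulated cultures. The interaction was -0.40 ± 0.04 on the log2 scale (edgeR adjusted p = 2.46e-14), so the rise on stimulation was smaller with the vector.

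Il2rb, the signalling chain shared by the IL-2 and IL-15 receptors, fell on stimulation and moved in opposite directions with the vector in the 2 cultures. Its libraries had 1146, 1132 and 1135 CPM in control and 1378, 1303 and 1301 CPM in Batf3 non-stimulated cells. They had 457, 472 and 478 CPM in control and 407, 420 and 437 CPM in Batf3 stimulated cells. All non-stimulated libraries lay above all stimulated ones, with the Batf3 group highest in 1 culture and lowest in the other. The vector raised Il2rb by a log2 change of 0.22 ± 0.03 in non-stimulated cells (edgeR adjusted p = 4.38e-11) and changed it by -0.15 ± 0.03 in stimulated cells (edgeR adjusted p = 5.25e-06). On stimulation it fell by 1.28 on the log2 scale in control cells (SE 0.03, edgeR adjusted p = 9.84e-48) and by 1.66 in Batf3 cells (SE 0.03, edgeR adjusted p = 8.49e-54). The interaction was -0.38 ± 0.04 (edgeR adjusted p = 1.47e-12).

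Il4ra, the binding chain for IL-4 that also serves IL-13, fell on stimulation and fell less with the vector. It had 332, 333 and 316 CPM in control and 278, 276 and 272 CPM in Batf3 non-stimulated cells. It had 120, 123 and 120 CPM in control and 137, 138 and 137 CPM in Batf3 stimulated cells. The Batf3 group was below the control group without stimulation and above it with stimulation, with no overlap. The vector effect was -0.25 ± 0.03 on the log2 scale in non-stimulated cells (edgeR adjusted p = 2.95e-10) and 0.19 ± 0.04 in stimulated cells (edgeR adjusted p = 1.24e-05). Stimulation gave -1.44 ± 0.03 in control cells (edgeR adjusted p = 1.65e-45) and -1.003 ± 0.03 in Batf3 cells (edgeR adjusted p = 2.92e-37). The interaction was 0.44 ± 0.05 (edgeR adjusted p = 1.41e-11).

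Il2rg, the common gamma chain itself, was lower with the vector in both cultures. It had 248.9, 252 and 258 CPM in control and 211, 204 and 206 CPM in Batf3 non-stimulated cells, and 280, 286 and 290 CPM in control and 240, 237 and 244 CPM in Batf3 stimulated cells. The vector effect was -0.29 ± 0.03 on the log2 scale without stimulation (edgeR adjusted p = 4.08e-12) and -0.25 ± 0.03 with it (edgeR adjusted p = 8.38e-10). The interaction was 0.04 ± 0.04, with a 95% interval of -0.04 to 0.13 (edgeR adjusted p = 0.572). On TMM scaling Il2rg rose on stimulation by 0.17 ± 0.03 in control cells (edgeR adjusted p = 4.9e-07) and 0.22 ± 0.03 in Batf3 cells (edgeR adjusted p = 4.77e-09). On library sizes alone, which moved the median log2 change of all genes by -0.186 and -0.215 in these contrasts, the values were -0.012 (adjusted p = 0.724) and 0.001 (adjusted p = 0.988), so Il2rg has no direction on stimulation that holds under both scalings.

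Il15ra, the IL-15 binding chain, can present IL-15 to Il2rb and Il2rg on the same or a neighbouring cell. Its libraries ranged from 23.5 to 26.1 CPM in control and 20.02 to 21.5 CPM in Batf3 non-stimulated cells, and from 41.3 to 45.8 CPM and 34.7 to 40.3 CPM in the stimulated groups. The vector effect was -0.25 ± 0.07 on the log2 scale without stimulation (edgeR adjusted p = 0.00486) and -0.19 ± 0.06 with it (edgeR adjusted p = 0.018). These 2 calls were lost on library sizes alone (adjusted p = 0.0556 and 0.0843). The second was also lost without control stimulated replicate 3 (0.109) or Batf3 stimulated replicate 3 (0.146). Stimulation raised Il15ra by 0.80 ± 0.07 in control cells (edgeR adjusted p = 5.92e-17) and 0.86 ± 0.07 in Batf3 cells (edgeR adjusted p = 1.53e-17). The interaction was 0.06 ± 0.10 (edgeR adjusted p = 0.743).

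Il21r, the binding chain for IL-21, was higher after stimulation with both vectors, and higher with Batf3 than with control in stimulated cells. It ranged from 187 to 190.4 CPM in control and from 189.7 to 199 CPM in Batf3 non-stimulated cells, which overlapped, and from 228 to 239.5 CPM and 256 to 269 CPM in stimulated cells, which did not. The vector effect was 0.04 ± 0.03 on the log2 scale without stimulation, with a 95% interval of -0.02 to 0.1 (edgeR adjusted p = 0.35), and 0.17 ± 0.03 with it (edgeR adjusted p = 2.66e-05). On library sizes alone the first value was 0.115 and passed the test (adjusted p = 0.00346). Stimulation raised Il21r by 0.30 ± 0.03 in control cells (edgeR adjusted p = 8.12e-13) and 0.43 ± 0.03 in Batf3 cells (edgeR adjusted p = 4.71e-19). The interaction of 0.13 ± 0.05 passed the test in the main model (edgeR adjusted p = 0.0388) and not with DESeq2 (adjusted p = 0.111). Among fits leaving out 1 library it passed only without control non-stimulated replicate 3 or Batf3 non-stimulated replicate 1.

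**Figure D2:**
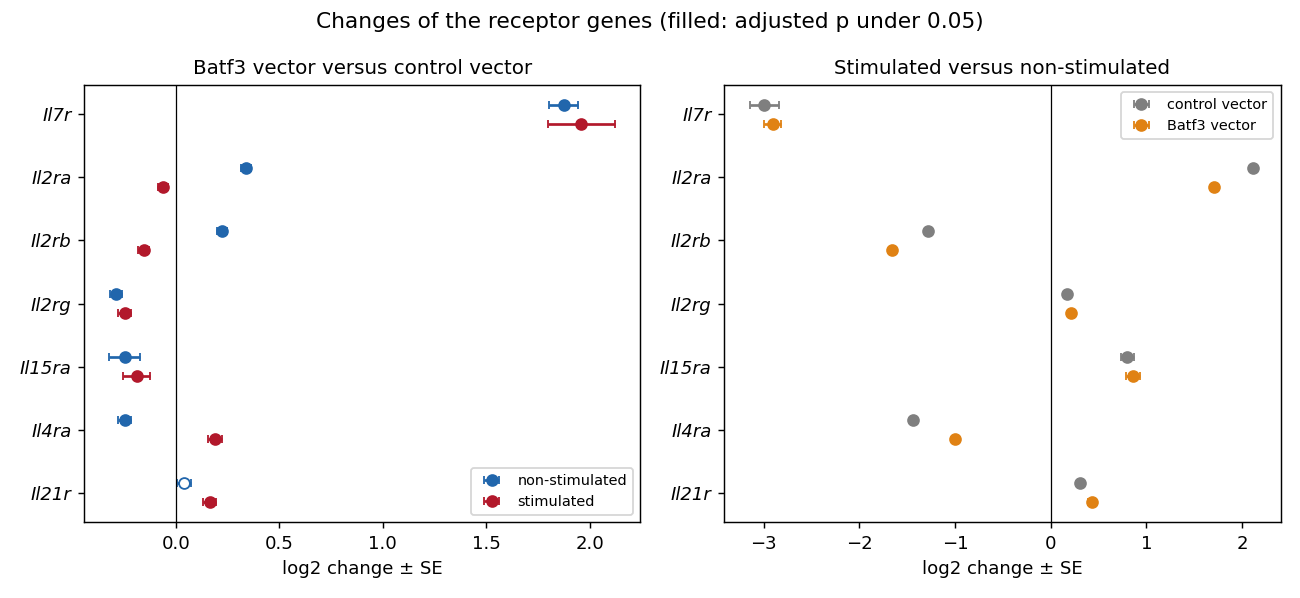
Log2 change ± SE of each receptor gene, Batf3 against control vector on the left and stimulated against non-stimulated cells on the right; filled points have an adjusted p under 0.05. Il7r is highest with the Batf3 vector (1.87 and 1.96) and lowest on stimulation (-2.99 and -2.91), whereas the other 6 genes change by at most 0.34 in size with the vector.

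Counted together, 3 of the 7 genes were called higher and 3 lower with the vector in non-stimulated cells, where 39.3% of all tested genes were called, 16.3% higher and 23.0% lower. In stimulated cells 3 were called higher and 4 lower, against 29.5% of all tested genes called, 14.8% higher and 14.6% lower. On stimulation 4 were called higher and 3 lower with either vector, against 80.3% of all tested genes called in control cells (39.6% higher, 40.7% lower) and 82.7% in Batf3 cells (41.2% higher, 41.4% lower). For the interaction 2 were called higher and 2 lower, against 20.7% of all tested genes called, 14.6% higher and 6.08% lower. On library sizes alone the share of called genes that were higher was 60.1% in place of 41.5% for the vector in non-stimulated cells, and 65.6% in place of 50.3% in stimulated cells. The 7 genes had a median log2 change of 0.04 with the vector in non-stimulated cells and -0.06 in stimulated cells, beside -0.02 and 0.002 over all tested genes. On stimulation the medians were 0.17 and 0.22, beside -0.01 and 0.01. The comparisons share libraries, so these counts are not independent of each other.

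Per kilobase of exon, which allows a rough comparison of levels between genes, the order of the receptors changed with stimulation. The length is that of the merged exons of all GENCODE M21 transcripts of a gene. The isoforms present were not measured, so ranks and shares between genes depend on that choice. In control non-stimulated cells Il2rb had 265 CPM per kb, 47.6% of the summed level of the 7 genes, followed by Il2rg at 106 and Il2ra at 61.4 CPM per kb. In control stimulated cells Il2ra had 266 CPM per kb, 44.7% of the sum, and Il2rb 109. With the Batf3 vector the leading gene was also Il2rb without stimulation (310 CPM per kb, 50.6%) and Il2ra with it (255 CPM per kb, 44.9%). Il7r made up 1.40% of the sum in control and 4.68% in Batf3 non-stimulated cells, and 0.165% and 0.673% in the stimulated groups. The summed level of all 7 was 557 ± 3.23 and 612 ± 12.5 CPM per kb in control and Batf3 non-stimulated cells, and 595 ± 3.53 and 567 ± 4.77 in the stimulated groups.

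**Figure D3:**
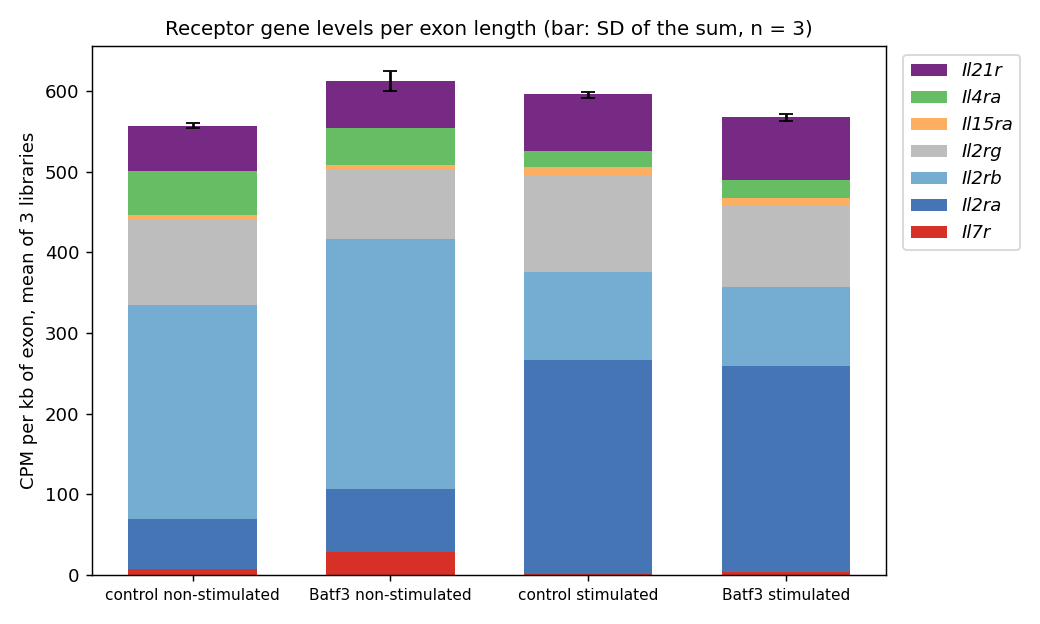
Stacked bars of the mean level of the 7 receptor genes in the 4 groups, in CPM per kb of merged exon, with the SD of the summed level over 3 libraries as the error bar. Il2rb takes the tallest segment in both non-stimulated groups at 265 and 310 CPM per kb, and Il2ra in both stimulated groups at 266 and 255 CPM per kb.

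Ligands of the family were low without stimulation. So were Il13 and Tslp, whose products bind Il4ra and Il7r but are not among the common gamma chain cytokines. Il2 had 3.87 ± 0.732 and 4.01 ± 0.42 CPM in control and Batf3 non-stimulated cells, and 3570 ± 15.9 and 3057 ± 70.5 CPM in stimulated cells, where it was lower with the vector (log2 change -0.22 ± 0.02, edgeR adjusted p = 6.47e-12). Il13 had 5.76 ± 0.634 and 25.5 ± 0.255 CPM in stimulated cells and at most 0.0664 CPM in any non-stimulated library. Il21 had 0.533 ± 0.153 and 2.08 ± 0.331 CPM in stimulated cells and no counts in the non-stimulated libraries, where 3 counts in 1 library correspond to 0.191 to 0.229 CPM. Both were called higher with the vector after stimulation (edgeR adjusted p = 1.19e-23 for Il13 and 3.15e-05 for Il21). Il7, Il4, Il9 and Tslp were too low to test, with Il7 at a group mean of at most 0.0852 CPM. Il15 had a group mean of at most 0.929 CPM and was not called with the vector in either culture (edgeR adjusted p = 0.249 and 0.719). On stimulation of control cells Il15 was called lower (-1.01 ± 0.49, edgeR adjusted p = 0.0442), with overlapping libraries. Of the 4 ligands tested (Il2, Il13, Il15 and Il21), 2 were higher and 1 lower with the vector in stimulated cells. Il13, not a common gamma chain cytokine, was 1 of the 2 that were higher. Of all tested genes, 14.8% were higher and 14.6% lower there.

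Of the partner chains Il9r, Il13ra1 and Crlf2, only Crlf2, which pairs with Il7r to bind TSLP, was high enough to test. It had 44.3 ± 0.707 and 40.1 ± 2.63 CPM in control and Batf3 non-stimulated cells and 65.99 ± 2.28 and 51.0 ± 0.677 CPM in stimulated cells. It was lower with the vector in both cultures (log2 change -0.14 ± 0.06 and -0.37 ± 0.05, edgeR adjusted p = 0.0307 and 3.39e-08). The first of these calls was lost with DESeq2 (adjusted p = 0.0775), on library sizes alone (-0.07, adjusted p = 0.338), with no filter (0.103) and with only the 2 groups compared (0.106). Among fits leaving out 1 library it passed only without control non-stimulated replicate 2, Batf3 non-stimulated replicate 1 or Batf3 stimulated replicate 3.

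Of the 6 JAK and STAT genes, 1 was higher and 2 lower with the vector in each culture. Of all tested genes, 39.3% were called with the vector in non-stimulated and 29.5% in stimulated cells. On stimulation 4 of the 6 were higher and 2 lower with either vector, against 80.3% (control) and 82.7% (Batf3) of all tested genes called. The 4 in control cells include Stat3, whose 0.08 ± 0.03 (edgeR adjusted p = 0.0195) turned to -0.11 on library sizes alone; in non-stimulated cells its -0.12 ± 0.03 with the vector (edgeR adjusted p = 0.00141) was not called on that scaling (-0.041). Stat5a, which carries IL-2, IL-7 and IL-15 signals, had 76.6 ± 3.13 CPM in control non-stimulated and 1099 ± 6.04 CPM in control stimulated cells (log2 change 3.84 ± 0.03, edgeR adjusted p = 1.88e-70). Stat5b rose by 1.51 ± 0.03 (edgeR adjusted p = 4.76e-47) and Stat6 by 0.88 ± 0.03 (edgeR adjusted p = 6e-34). Jak1, the kinase on the private chains, had a log2 change of -1.55 ± 0.03 on stimulation of control cells (edgeR adjusted p = 7.26e-51), and Jak3, the kinase on the common chain, of -0.76 ± 0.05 (edgeR adjusted p = 3.24e-22). With the vector in stimulated cells Jak3 fell by 0.51 on the log2 scale (SE 0.05, edgeR adjusted p = 3.03e-12) and Stat3, used by IL-21, rose by 0.24 ± 0.03 (edgeR adjusted p = 1.11e-09).

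Of 9 STAT5 target and feedback genes, 5 were higher and 2 lower with the vector in non-stimulated cells. Of all tested genes, 16.3% were higher and 23.0% lower there. In stimulated cells 4 of the 9 were higher and 4 lower, against 14.8% and 14.6% of all tested genes. Socs2, a feedback inhibitor, rose with the vector in both cultures (0.43 ± 0.05 and 0.50 ± 0.08, edgeR adjusted p = 7.6e-11 and 1.35e-06). Bcl2, a survival gene downstream of IL-7, had 267 ± 11.9 and 287 ± 6.6 CPM in control and Batf3 non-stimulated cells, and 74.3 ± 3.21 and 129.6 ± 1.78 CPM in stimulated cells. Its log2 change with the vector was 0.10 ± 0.03 without stimulation (edgeR adjusted p = 0.00812) and 0.80 ± 0.04 with it (edgeR adjusted p = 1.85e-25). The first call was lost without control replicate 1 or 2 or Batf3 replicate 2 of the non-stimulated cultures. Pim1, a kinase induced by cytokines, rose by 0.35 ± 0.03 without stimulation (edgeR adjusted p = 2.32e-15) and changed by -0.25 ± 0.03 with it (edgeR adjusted p = 7.08e-10). Cish and Socs1, both feedback inhibitors, changed by 0.14 ± 0.03 and -0.11 ± 0.04 without stimulation and by -0.20 ± 0.03 and -0.32 ± 0.06 with it (edgeR adjusted p = 0.000934, 0.0292, 1.49e-06 and 4.79e-06). The Socs1 call without stimulation was lost with DESeq2 (adjusted p = 0.0975) and on library sizes alone (-0.033, adjusted p = 0.565). Osm, a cytokine induced by STAT5, was the largest fall of the list with the vector in non-stimulated cells (-0.24 ± 0.04, edgeR adjusted p = 2.24e-07) and on stimulation of control cells (-2.92 ± 0.05, edgeR adjusted p = 1.32e-52).

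**Figure D4:**
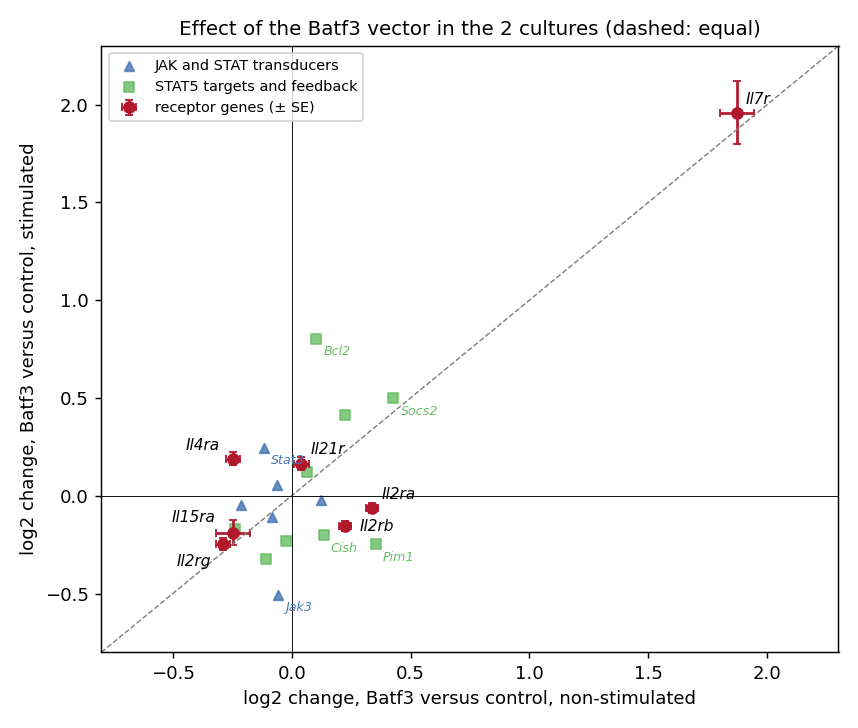
Log2 change with the Batf3 vector in non-stimulated (x axis) and stimulated cells (y axis) for the 7 receptor genes, JAK and STAT genes, and STAT5 targets; the dashed line marks equal change. Il7r lies at 1.87 and 1.96, apart from all other genes shown.

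Transcription factors reported to control Il7r moved in more than 1 direction. Of 5 tested, 2 were higher and 1 lower with the vector in non-stimulated cells, where 39.3% of all tested genes were called. In stimulated cells 2 were higher and 2 lower, against 29.5% of all tested genes called. On stimulation 4 were higher and 1, Foxo1, lower with either vector, against 80.3% (control) and 82.7% (Batf3) of all tested genes called. In control cells Runx1 rose by 1.71 ± 0.16 on the log2 scale (edgeR adjusted p = 4.94e-16) and Foxp1 by 1.57 ± 0.03 (edgeR adjusted p = 6.79e-47). Foxo1, an activator of Il7r, had a log2 change of 0.19 ± 0.04 and 0.53 ± 0.04 with the vector (edgeR adjusted p = 3.21e-05 and 9.61e-16) and of -0.85 ± 0.04 on stimulation of control cells (edgeR adjusted p = 1.9e-27). Gfi1, a repressor of Il7r, fell by 0.62 (SE 0.06, edgeR adjusted p = 6.15e-15) and by 0.14 (SE 0.05, edgeR adjusted p = 0.0348) with the vector. The second of these calls was lost with DESeq2 (adjusted p = 0.0584), on library sizes alone (0.192) and without replicate 1 of either stimulated group. Runx1 rose by 1.69 ± 0.16 and 1.29 ± 0.11 (edgeR adjusted p = 3.6e-15 and 1.74e-16), from 2.79 ± 0.4 to 9.02 ± 1.19 CPM in non-stimulated cells. Foxp1, which opposes Foxo1 at Il7r, had -0.003 ± 0.04 in non-stimulated cells (edgeR adjusted p = 0.958) and -0.23 ± 0.03 in stimulated cells (edgeR adjusted p = 1.49e-08).

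Among 16 receptors of other cytokine families, 5 were higher and 6 lower with the vector in non-stimulated cells. In stimulated cells 10 were higher and 2 lower. Of the 7 genes described above these were 3 and 3, then 3 and 4. Of all tested genes 16.3% were higher and 23.0% lower in non-stimulated cells, and 14.8% and 14.6% in stimulated cells. On stimulation 1 of the 16 was higher and 12 were lower in control cells, and 3 and 12 in Batf3 cells. Of all tested genes 40.7% and 41.4% were lower in these comparisons. Il1rl1, the IL-33 receptor, had 51.4 ± 0.828 and 120.1 ± 6.66 CPM in control and Batf3 stimulated cells (log2 change 1.22 ± 0.05, edgeR adjusted p = 7.81e-30), and Il10ra changed by -0.66 ± 0.04 and -0.70 ± 0.07 in the 2 cultures (edgeR adjusted p = 7.68e-22 and 8.41e-14). Il6ra, the IL-6 binding chain, had the largest rise of the list in non-stimulated cells (0.69 ± 0.08, edgeR adjusted p = 6.2e-11). Il6st, the signalling chain of the IL-6 family, had 47.1 ± 1.14 and 82.7 ± 1.76 CPM in control and Batf3 stimulated cells and the largest interaction of the list (0.90 ± 0.08, edgeR adjusted p = 4.52e-15). Ifngr1, an interferon gamma receptor chain, had the largest fall on stimulation of control cells (-4.60 ± 0.06, edgeR adjusted p = 1.07e-64). Ifnar2 fell 8.33-fold and Il12rb2 6.5-fold there, beside 7.96-fold for Il7r.

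The genes whose pattern over the 4 groups was nearest to that of Il7r, among 8688 tested protein-coding genes, were Igfbp4, Ston2, Cd7 and Pcyt1b. Their root mean square differences from Il7r in centred log2 group means, over 4 groups of 3 libraries, were 0.239, 0.332, 0.361 and 0.377. Nearest to Il2ra were Snx9, Ccdc85c, Psd and Tnip2, at 0.039, 0.055, 0.06 and 0.073. Among the receptor genes themselves the nearest pair was Il2rg and Il21r at 0.204 and the farthest Il7r and Il2ra at 2.60. Genes with small changes lie near each other by this measure even where their directions differ. With the vector Il2rg changed by -0.29 and -0.25 on the log2 scale in non-stimulated and stimulated cells, and Il21r by 0.04 and 0.17.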

How the data were processed

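RNA-seq was measured in 12 libraries. The authors deposited whole-number read counts per gene, made per the submitters' processing notes with STAR 2.7 and featureCounts on GRCm38; per the labels' protocols, polyadenylated RNA from 100 ng of total RNA was made into stranded libraries with 15 PCR cycles. No source used here gives the annotation release, the strand setting or the treatment of multiply aligned reads. Of the gene identifiers, 55154 matched GENCODE M21 and 181 did not. Counts were analysed with edgeR 4.0.16 in R 4.3.3: filterByExpr, TMM factors, 4 group means, robust quasi-likelihood fit with 8 residual degrees of freedom, two-sided tests, Benjamini-Hochberg adjustment over 15702 genes, calls at an adjusted p under 0.05. CPM carry no pseudocount. SEs are never below counting error. The test was checked on simulated counts for the vector in non-stimulated cells (15186 genes). In these counts the spread was set alike for every gene, and group means were equal except for the changed genes. Only genes with a mean of 10 CPM or more were changed, so lower genes were not checked. The test recovered 92% of 50 genes changed 1.25-fold and 100% at 1.5-fold. Estimates lay within 2 SE of the set value for 92% of genes at 1.25-fold and 98% at 1.5-fold. The shares were 92% at 2-fold and 88% at 4-fold. Recovery in the measured libraries was not tested. Named genes were the 7 receptors, a fixed set of pathway genes, and the called gene with the largest rise and fall of each list at 1 CPM or more. Nearest patterns used group means with a prior count of 2 and at least 10 CPM. The receptor genes and lists were chosen with earlier results of these data known. Alternatives were DESeq2 1.42.0, RLE factors, library sizes alone, other filters, only the compared groups, a replicate block and leaving out each library. No pair of replicates was within sampling noise, and no column was left unmapped.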

Additional observations from a re-analysis of the deposited data

Results flagged for a closer look

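For 4 receptor genes the effect of the Batf3 vector differed between non-stimulated and stimulated cells by the interaction test of edgeR. By that test 20.7% of all tested genes were called, 14.6% higher and 6.08% lower. The difference (effect in stimulated minus effect in non-stimulated cells, log2) was -0.40 for Il2ra, -0.38 for Il2rb, 0.44 for Il4ra and 0.13 for Il21r. For Il2rb and Il4ra the vector effect had opposite signs in the 2 cultures and was called in both. That of Il2ra also changed sign, with a weak call in stimulated cells, and the difference for Il21r was lost with DESeq2. Single values in groups of 3 libraries were not tested for outlying samples.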

How the results depend on the processing

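Of the receptor genes' log2 changes in fits leaving out 1 library, 398 kept direction and side of the threshold, 16 lost the call and 6 changed sign; under other settings these were 225, 10 and 2, and 1 gained a call. Il2rg on stimulation of control cells was called higher in the main model (0.17 ± 0.03, edgeR adjusted p = 4.9e-07) and was -0.012 on library sizes alone. The Il2rg interaction, 0.04 in the main model, was -0.003 with no filter. Leaving out 1 library, interactions ranged from -0.11 to 0.387 for Il7r, -0.007 to 0.052 for Il2rg, -0.019 to 0.119 for Il15ra, -0.014 to 0.082 for Osm and -0.014 to 0.115 for Socs2, and the vector effect in non-stimulated cells from -0.09 to 0.183 for Il2 and -0.039 to 0.024 for Foxp1. On library sizes alone the vector effect was 0.017 for Jak3, 0.015 for Stat5b and 0.071 for Foxp1 in non-stimulated cells and 0.022 for Jak1 in stimulated cells. On that scaling the change on stimulation was -0.11 for Stat3 in control cells and -0.04 for Cish in Batf3 cells. Both were called higher in the main model, at 0.076 and 0.175. The vector effect on Foxp1 in non-stimulated cells was 0.012 with no filter, 0.006 with at least 1 CPM in 3 libraries and 0.028 with only the 2 groups compared. Receptor genes called lower with the vector in stimulated cells were 2 on library sizes alone, and 2 to 4 leaving out 1 library. Those called higher in the interaction were 1 with DESeq2, RLE factors, library sizes alone, no filter and the filter of 1 CPM, and 1 to 2 leaving out 1 library, Il21r being the gene lost. All genes called lower with the vector in non-stimulated cells were 2397 on library sizes alone (3615 with TMM), and all genes called higher in the interaction 1524 with no filter (2296). The cause was not tested. Replicate numbers did not pair the samples: deviations of same-numbered libraries correlated between -0.11 and 0.059, and a library was nearest to its own number in 4 of 18 comparisons. With the replicate block, 3 receptor genes were called lower with the vector in stimulated cells in place of 4, Il2ra being lost (-0.063, adjusted p = 0.0508), 3557 of all genes were called lower with the vector in non-stimulated cells, and no other receptor call changed. Depth limits Il7r in control stimulated cells, with 46 to 85 reads per library.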
